A study of Mus musculus with 117 samples.

Results

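The 9 genes followed here carry lipid out of cells or act on the particles that hold it: the carrier apolipoproteins Apoe, Clu and Apod, the small exchangeable apolipoproteins Apoc1, Apoc2 and Apoc4, the membrane transporters Abca1 and Abcg1, and the lipase Lpl. They were chosen as a named list by Entrez gene identifier, out of 27179 genes in the count tables, and all 9 were present in the tables of all 117 libraries. RNA was taken from mouse spinal cord by RiboTag, in which Cre puts a haemagglutinin tag on a ribosomal protein of 1 cell type, so that its ribosomes and the RNA on them can be pulled down. The pulled-down RNA is called astrocyte RNA below (70 libraries), and the unpurified RNA that stayed in solution is called flow-through (47 libraries). All mice carried the RiboTag allele on a C57BL/6 background. In the Aldh1l1-CreERT2 line, a tamoxifen-inducible Cre under an astrocyte promoter, young adult females were uninjured (n = 4) or were taken at 2 (n = 5), 5, 14, 28, 42 or 70 d (n = 4 each) after a complete crush spinal cord injury (SCI), and males at 5 and 14 d (n = 4 each), every group with both kinds of library. In the mGfap-Cre-73.12 line, in which a Gfap promoter drives Cre without an inducer, so that cells which expressed it earlier stay tagged, uninjured mice were taken at postnatal days P0 (n = 4, all labelled male), P3 (n = 3), P7 (n = 3), P14 (n = 5), P21 (n = 4), P35 (n = 4) and P63 (n = 5, 3 male and 2 female, also with flow-through). The same line was taken at 14 d after SCI (n = 5, all female, both kinds of library). Each library came from 1 mouse, from a block of cord reaching 1 mm to each side of the lesion centre, which held the lesion core and bordering tissue, or from the matching level of uninjured cord.

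Astrocytes are the main source of lipoproteins in the central nervous system. They place cholesterol and phospholipid on Apoe and Clu through the transporters Abca1 and Abcg1, and other cells take the particles up. Lpl hydrolyses the triglycerides of such particles, Apoc2 is its cofactor, and Apoc1 slows both the lipase and the uptake of particles. Myeloid cells that clear myelin debris use the same set to export cholesterol, and Abca1, Abcg1, Apoe, the Apoc genes and Lpl are known targets of the liver X receptors (LXR), which sense oxysterols.

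By the RefSeq annotation of GRCm38.p6, the build behind the mm10 alignment, Apoe (chr7:19696244-19701310), Apoc1 (chr7:19689480-19692659), Apoc4 (chr7:19678084-19681460) and Apoc2 (chr7:19671579-19677941) lie side by side on the minus strand of chromosome 7 within 29732 bases. Apoc4 ends 142 bases before Apoc2 begins. The others lie alone, Clu at chr14:65968483-65981548 on the plus strand, Apod at chr16:31296192-31314808 on the minus strand, Abca1 at chr4:53030789-53159988 on the minus strand, Abcg1 at chr17:31057694-31117984 on the plus strand and Lpl at chr8:68880555-68906932 on the plus strand. Apoc2 and Apoc4 share 60.0% and 30.1% of their exon bases with Gm44805, a same-strand gene model outside the count tables, so reads from it could not be told from theirs. The stretches before the RefSeq start sites of these 2 neighbours are shown because both genes went from near 0 to well above it after SCI. They are written 5′ to 3′ on the minus strand, Apoc2 from chr7:19677942-19678083 and Apoc4 from chr7:19681461-19681710 of GRCm38.p6. The capitals mark AGGTCA, the half-site of nuclear receptors such as LXR, and GGGCGG, the GC box.
Apoc2: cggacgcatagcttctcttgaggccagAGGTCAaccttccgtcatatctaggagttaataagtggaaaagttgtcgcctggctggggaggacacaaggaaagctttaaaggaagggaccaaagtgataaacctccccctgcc
Apoc4: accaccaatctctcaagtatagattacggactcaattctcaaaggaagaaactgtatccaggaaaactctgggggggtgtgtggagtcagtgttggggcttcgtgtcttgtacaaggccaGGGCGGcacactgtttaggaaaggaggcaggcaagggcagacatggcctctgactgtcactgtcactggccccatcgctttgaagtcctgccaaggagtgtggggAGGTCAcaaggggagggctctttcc
Position 1 being the first base of the gene, AGGTCA stood at -115 to -110 of Apoc2, with a further copy inside the gene, and at -25 to -20 of Apoc4, and GGGCGG at -130 to -125 of Apoc4. AGGTCA and GGGCGG, read on both strands, were present in 16.3% and 35.6% of the 32817 RefSeq windows from 250 bases before to 50 bases after a start site, so either match is a common one. The last motif searched, TATAAA (13.6% of windows), was not in either stretch.

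Libraries held 40710428 to 136008399 counts (median 95831369). Levels are given as CPM, the counts put on a common library total with TMM factors over all 117 libraries, and fold changes come from edgeR's quasi-likelihood test on the counts with Benjamini-Hochberg adjustment over all genes tested, called at an adjusted p under 0.01. Log2 fold changes are given ± SE. The label of the astrocyte RNA was checked against 12 astrocyte markers, which were higher in astrocyte RNA than in flow-through for 12 of 12 in uninjured Aldh1l1 mice, 11 of 12 at 2 d and 12 of 12 at the later times. Some markers of other cells were above flow-through too. In uninjured Aldh1l1 mice these included 6 of 6 neutrophil, 4 of 6 stroma and 3 of 5 Schwann cell markers, against 0 of 10 neuron markers. In mGfap mice, at P63 and at 14 d, 12 of 12 astrocyte markers were. So were 6 of 6 ependyma, 6 of 6 oligodendrocyte progenitor and 5 of 5 Schwann cell markers, against 0 of 10 neuron markers. The summed level of the 12 astrocyte markers in Aldh1l1 astrocyte RNA went from a median of 59705 CPM in uninjured cord to 28314 CPM at 2 d and 31325 CPM at 5 d, and was 52248 to 59766 CPM from 14 to 70 d. At 2 d, when Apoe, Apoc1 and Lpl were lower, 9 of these 12 markers were called lower and 0 higher, and the part of this in the results at 2 d was not tested. The sum of 16 pan-myeloid markers in astrocyte RNA was not constant. Its range was 87.3 to 163 CPM in uninjured cord, 2531 to 4613 CPM at 2 d, 22376 to 28518 CPM at 5 d, 16480.3 to 24711 CPM at 14 d and 2404 to 7054 CPM at 70 d, with none of the 16 at 0 in any group. The same myeloid sum is given beside the results it moved with, and its part in them was not tested. One 5 d flow-through library of the female group was labelled male while its title and its partner library were not. It was kept in the group by its title, and without it no call against uninjured flow-through at 5 d changed.

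In astrocyte RNA of the Aldh1l1 line some of the 9 members changed direction after SCI. At 2 d Apoe, Apoc1 and Lpl fell below uninjured levels, while Apoc2 and Abcg1 rose. By 5 d 7 of the 9 were above uninjured levels, and from 14 to 70 d 8 of the 9 were, Apod being the exception. At 2 d 2 of 9 were called higher, where 30.2% of the 18205 genes tested were, and 3 of 9 lower, where 29.9% were. Both counts were near the share of all genes. Of all calls at 2 d, 50.2% were higher (61.5% on library totals). At 5 d the counts were 7 higher (all genes, 28.7%) and 1 lower (28.1%). At 14, 28, 42 and 70 d they were 8 higher and 0 lower at each time, against 24.5%, 22.8%, 23.3% and 23.9% of all genes called higher and 22.8%, 19.1%, 20% and 21.5% called lower. The 6 comparisons share the 4 uninjured libraries.

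**Figure D1:**
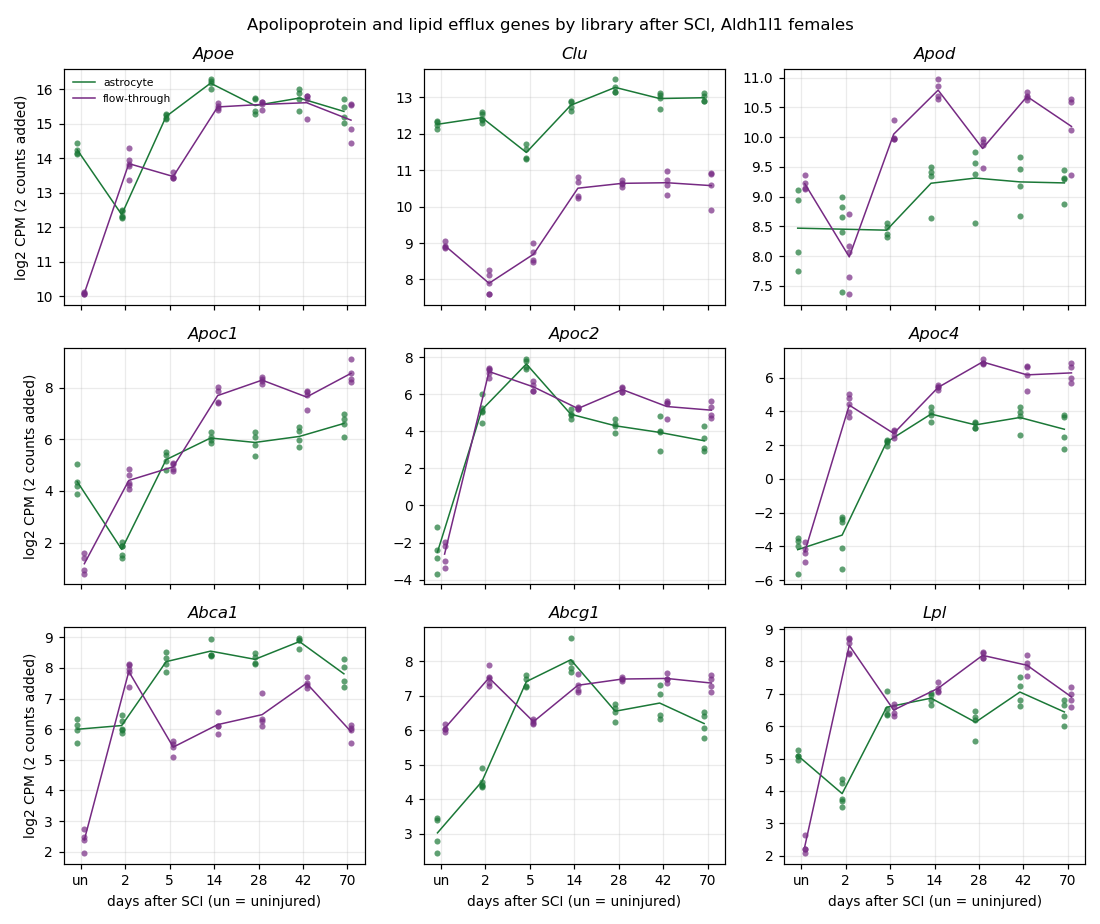
Each panel plots 1 member in the female Aldh1l1 mice as log2 CPM against days after SCI on evenly spaced ticks, with points for libraries and lines through the group means of astrocyte RNA (green) and flow-through (purple). Apoe, Apoc1 and Lpl dip at 2 d in green while purple rises, and Apoc2 and Apoc4 start near the bottom in both.

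On a scale per exon length, the members spanned a wide range in uninjured astrocyte RNA. Mean FPKM (CPM divided by exon length in kilobases) was 5828 for Apoe, 2267 for Clu, 184 for Apod, 38.7 for Apoc1, 8.44 for Lpl, 6.18 for Abca1, 1.45 for Abcg1, 0.235 for Apoc2 and 0.0777 for Apoc4 (n = 4). At 14 d the order by mean FPKM was Apoe (22235), Clu (3264), Apod (296), Apoc1 (120.0), Abcg1 (46.8), Apoc2 (37.4), Abca1 (36.0), Lpl (28.9) and Apoc4 (28.4). Apoe stayed first and the 5 genes that had been scarce closed in on each other.

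Apoe, the main lipoprotein carrier of the cord, stood at 19572, 18037, 18207 and 22254 CPM in the 4 uninjured astrocyte libraries, where it ranked 2 of all genes by FPKM. At 2 d the 5 libraries held 5801, 4904, 5144, 5659 and 5037 CPM, all below every uninjured library, a 3.66-fold fall (log2 -1.87 ± 0.13, adjusted p = 4e-13), and its FPKM rank was 16. At 5 d the libraries held 38790.4, 36842, 40309 and 36402 CPM, already above uninjured (1.92-fold, adjusted p = 9.1e-07), and at 14 d they held 65662, 80209, 77010.0 and 74978 CPM (3.68-fold, adjusted p = 4.1e-12). That was the peak, with Apoe first of all genes by FPKM from 14 to 70 d. The step from 14 to 28 d was downward (log2 -0.59 ± 0.14, adjusted p = 0.0045), but that call was lost without any 1 of 14 d libraries 2, 3 or 4 or 28 d libraries 1 or 3 (adjusted p = 0.012 to 0.0266). At 70 d the libraries ran from 33538 to 54245 CPM, 2.21-fold over uninjured, with no overlap between the groups.

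Clu, the second carrier and an extracellular chaperone, moved less and the other way at first. It held 4487, 4879, 5193 and 5104 CPM in uninjured libraries and 6006, 6202, 5394, 5279 and 5076 CPM at 2 d, where the groups overlapped (log2 0.19 ± 0.10, adjusted p = 0.098, but 0.43 with adjusted p = 0.00142 on library totals in place of TMM). At 5 d it fell to 3042, 2598, 2549 and 3379.7 CPM, 1.73-fold below uninjured with no overlap (adjusted p = 2.2e-07), at the time when Apoe was already up. From 14 d it was above uninjured at every time, by 1.39-fold at 14 d, 2.02-fold at 28 d, where the libraries ran from 9144 to 11550.2 CPM, and 1.67-fold at 70 d (adjusted p = 0.00042, 5e-09 and 1.4e-06). Apod, a lipocalin that binds small lipids, was the member with no call at any time. Its uninjured libraries already spread from 215 to 552 CPM, its 70 d libraries from 467 to 697 CPM, and the log2 fold changes ran from -0.17 at 5 d to 0.80 ± 0.31 at 28 d (adjusted p = 0.035), with the libraries overlapping at all 6 times.

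The 3 C apolipoproteins did not move together. Apoc1, which restrains lipase and particle uptake, stood at 18.1, 14.7, 20.2 and 32.7 CPM in uninjured libraries and at 3.64, 4.08, 3.58, 2.65 and 2.83 CPM at 2 d, a 6.36-fold fall with no overlap (adjusted p = 1.5e-10). Its 5 d libraries, 42.1, 27.9, 35.3 and 45.0 CPM, overlapped the uninjured ones. That call (1.72-fold, adjusted p = 0.0047) was lost without any 1 of uninjured libraries 1, 2 or 3 or 5 d libraries 1 or 4 (adjusted p = 0.0117 to 0.0237) and in a fit of those 2 groups alone (adjusted p = 0.013). From 14 d Apoc1 was clearly up. It was the one member with its highest mean at the last time, 67.9, 111, 126 and 96.0 CPM at 70 d, 4.70-fold over uninjured (log2 2.23 ± 0.24, adjusted p = 2.1e-08).

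Apoc2, the lipase cofactor, was near 0 in uninjured astrocyte RNA at 0.420, 0.171, 0.122 and 0.0519 CPM. It rose already at 2 d, to 63.5, 21.5, 32.8, 37.5 and 34.0 CPM at 2 d (log2 7.60 ± 0.51, adjusted p = 1.4e-12), and it peaked at 5 d with 177, 219, 241 and 162 CPM (log2 9.97 ± 0.54). It then fell from 5 to 14 d (log2 -2.74 ± 0.36, adjusted p = 1.9e-06) and held 8.55, 7.65, 19.4 and 12.2 CPM at 70 d, each still above every uninjured library. Apoc4, 142 bases away, followed later. It held 0.0663, 0.0426, 0 and 0.0519 CPM in uninjured libraries, 14 counts over all 4, and 0.184, 0.163, 0, 0.0291 and 0.146 CPM at 2 d. The ratio of counts per effective read at 2 d was 2.76 (95% counting interval 1.48 to 5.46) and the change was not called (adjusted p = 0.13), so at 2 d Apoc2 had risen and a rise of Apoc4 was not detectable beyond the spread. At 5 d Apoc4 held 4.70, 4.58, 4.98 and 3.88 CPM, a ratio of 117 (95% counting interval 69.3 to 214), and at 14 d 10.2, 13.9, 15.6 and 19.2 CPM, a ratio of 378 (95% counting interval 225 to 692). It rose again from 5 to 14 d (log2 1.67 ± 0.40, adjusted p = 0.0018) while Apoc2 fell. The intervals cover counting error only.

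Of the transporters, Abca1, which loads lipid onto poor apolipoproteins, held 47.1, 62.2, 81.1 and 69.8 CPM in uninjured libraries and 88.9, 58.3, 64.3, 63.1 and 76.7 CPM at 2 d, which overlapped (log2 0.11 ± 0.17, adjusted p = 0.57). At 5 d it held 363, 317, 235 and 278 CPM, 4.50-fold over uninjured (adjusted p = 9.8e-11). Its mean was highest at 42 d, at 481, 505, 485 and 394 CPM (7.23-fold), and it fell from there to 70 d (log2 -1.02 ± 0.18, adjusted p = 0.00029). Abcg1, which passes lipid to particles already formed, was scarce in uninjured astrocyte RNA at 10.5, 11.0, 6.92 and 5.40 CPM. It rose at 2 d to 30.0, 22.6, 20.9, 21.05 and 20.5 CPM (2.73-fold, adjusted p = 6.2e-06), at 5 d to 193.8, 178, 156 and 152 CPM (19.8-fold) and at 14 d to 207, 408, 252 and 223 CPM (31.0-fold). It was lower at 28 d than at 14 d (log2 -1.48 ± 0.24, adjusted p = 0.00022), at 92.6, 109, 75.8 and 99.6 CPM, and remained above every uninjured library at 70 d (54.5 to 91.8 CPM). Lpl, the lipase itself, followed Apoe in direction at every time. It held 38.2, 34.0, 33.7 and 30.8 CPM in uninjured libraries, 11.4, 20.8, 18.9, 12.9 and 13.4 CPM at 2 d (2.20-fold lower, adjusted p = 3.8e-05), 135, 82.6, 82.1 and 92.2 CPM at 5 d (2.82-fold higher, adjusted p = 2.1e-06) and 185, 98.9, 152 and 112 CPM at 42 d (4.06-fold).

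From one time to the next, 8 of 9 members were called between 2 and 5 d (7 up, Clu down), where 41.4% of all genes were called in either direction. Between 5 and 14 d 5 were called (Apoe, Clu, Apoc1 and Apoc4 up, Apoc2 down; all genes 25.3%), the Apoc1 call being lost without any 1 of the 4 libraries at 14 d or libraries 1, 2 or 3 at 5 d (adjusted p = 0.0105 to 0.0416). Between 14 and 28 d 3 were called (Clu up, Apoe and Abcg1 down; 7.40%), between 28 and 42 d 0 (1.67%) and between 42 and 70 d 1 (Abca1 down; 12.6%). Between 28 and 42 d 3 had an unadjusted p under 0.05 (Clu, Abca1 and Lpl), a limit at which the share of all genes is not given. Nearest to a call was Lpl (log2 0.95 ± 0.22, adjusted p = 0.012), which DESeq2 and the fit without 42 d library 2 did call (adjusted p = 0.000532 and 0.00777). In these bulk libraries fewer tagged cells and less RNA per cell cannot be told apart. The myeloid marker sum had a median of 117 CPM in uninjured cord, 3157 at 2 d, 25978 at 5 d and 19885 at 14 d. Its median was lower later, at 8283 at 28 d, 8697 at 42 d and 3986 at 70 d. Apoc2 and that sum were both highest at 5 d, while Apoe, Apoc4 and Abcg1 were highest at 14 d, Abca1 and Lpl at 42 d, Clu at 28 d and Apoc1 at 70 d. The libraries at the highest and next-highest times overlapped for Apoe, Apoc1, Apoc4, Abca1 and Lpl, but not for Clu, Apoc2 or Abcg1. The myeloid sums at 5 and 14 d overlapped as well. The part of the myeloid signal in these changes was not tested.

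Flow-through RNA was tested against uninjured flow-through in the same way. At 2 d 7 of 9 were called higher (all genes 32.6% of 19207) and Clu and Apod lower (32.9%). At 5 d 7 were called higher (27.7%). At 14 and 28 d, 9 and 8 were (24.6% and 26.4%), and at 42 and 70 d all 9 were (25.3% and 21.8%). Apoe went from 1102, 1064, 1128 and 1080.5 CPM in uninjured flow-through to 20383, 10588, 15711, 14564 and 14146 CPM at 2 d (14.1-fold, adjusted p = 5.8e-15) and 50461, 51036, 49279.9 and 43413 CPM at 28 d (44.1-fold), with every injured library above every uninjured one. Lpl went from 6.23, 4.60, 4.61 and 4.21 to 379, 425, 297, 419 and 309 CPM at 2 d (76.3-fold, adjusted p = 9.9e-20), its highest point in this fraction. Both had fallen in astrocyte RNA at that time.

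Abca1, which had not passed the test in astrocyte RNA at 2 d, went in flow-through from 3.88, 6.64, 5.62 and 5.17 CPM to 233, 248, 166, 272 and 280.1 CPM at 2 d (46.0-fold, adjusted p = 2.3e-17). Apoc2 rose from 0.111, 0.208, 0.237 and 0.0814 to 168, 116, 143, 159.7 and 163 CPM at 2 d (log2 9.89 ± 0.31), and Apoc4 from 0.0317, 0.0415, 0.0572 and 0.0163 CPM, 19 counts in all, to 15.4, 27.5, 21.5, 33.1 and 12.6 CPM at 2 d, a ratio of counts of 564 (95% counting interval 361 to 937), and to 118, 119, 113 and 140.3 CPM at 28 d. Apoc1 was highest at the last time, going from 1.89, 1.72, 3.00 and 2.66 CPM to 24.5, 18.5, 28.8, 19.6 and 16.6 CPM at 2 d, a mean of 313 CPM at 28 d, a lower mean of 202 CPM at 42 d and 295, 318, 556 and 377 CPM at 70 d (169-fold, adjusted p = 1.6e-17). Abcg1, already at 61.4, 65.7, 71.7 and 65.8 CPM in uninjured flow-through, moved least of the induced members, to 180.4, 185, 156, 236 and 166 CPM at 2 d (2.85-fold) and 79.6, 76.4, 74.2 and 72.8 CPM at 5 d (log2 0.27 ± 0.12, adjusted p = 0.049, not called). Clu held 479, 467, 528 and 487 CPM in uninjured flow-through, 276, 195, 241, 307 and 192.4 CPM at 2 d (1.98-fold lower, adjusted p = 1.3e-05) and 1558, 1699, 2016 and 1272 CPM at 42 d (3.37-fold higher). Apod held 567, 559, 657 and 599.6 CPM, 417, 164, 287, 201 and 267 CPM at 2 d (2.19-fold lower) and 1592, 1661, 1848.9 and 2007 CPM at 14 d (3.02-fold higher). Its 28 d value missed the threshold (log2 0.59 ± 0.22, adjusted p = 0.02) but passed it in a fit of those 2 groups alone (adjusted p = 8.95e-05), and at 70 d its libraries overlapped the uninjured ones. The pan-myeloid sum in flow-through was 553 to 645 CPM in uninjured cord, 11810.4 to 16065 CPM at 2 d and 16427 to 17118 CPM at 28 d.

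Astrocyte RNA was then set against the flow-through of the same group, called where the difference was at least 2-fold at an adjusted p under 0.01. In uninjured cord 5 of the 8 members tested were higher in astrocyte RNA and Abcg1 was lower (all genes in either direction 41.1% of 17595). The differences were log2 4.17 ± 0.10 for Apoe, 3.62 ± 0.20 for Abca1, 3.34 ± 0.09 for Clu, 3.22 ± 0.27 for Apoc1 and 2.81 ± 0.14 for Lpl, and -2.95 ± 0.21 for Abcg1. Apoc4, with 14 and 19 counts over the 2 groups, was too low to be tested. At 2 d Clu was the only member still higher in astrocyte RNA (log2 4.50 ± 0.18), 7 were lower and Apod was not called (all genes 41.1%). Lpl stood at log2 -4.60 ± 0.22, Apoe at -1.53 ± 0.17 and Abca1 at -1.80 ± 0.16, each on the opposite side from uninjured cord.

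**Figure D2:**
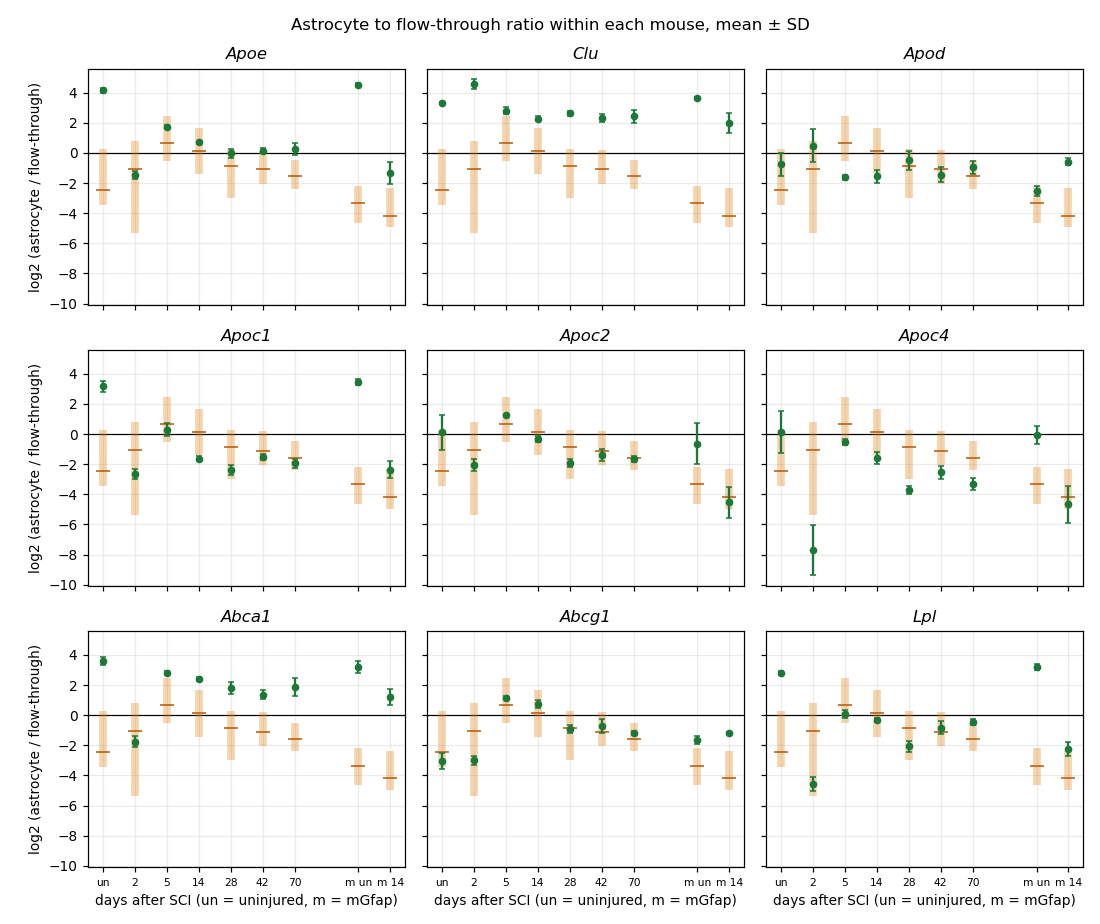
Each panel plots 1 member as the log2 ratio of astrocyte RNA to flow-through within a mouse (green points, mean of the group, bars ± SD over mice), with the range (orange bars) and median (orange lines) of 16 pan-myeloid markers in the same groups. Clu and Abca1 lie above 0 in every group but 2 d for Abca1, and Apoe meets 0 from 28 d.

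At 5 d 5 members were higher in astrocyte RNA (Apoe, Clu, Apoc2, Abca1 and Abcg1) and Apod was lower (all genes 35.2%). This was the only time at which Apoc2 (log2 1.13 ± 0.14) and Abcg1 (1.07 ± 0.09) were called higher there, and both fell under the 2-fold limit when library totals replaced TMM (0.83 and 0.76). The pan-myeloid markers also leaned to astrocyte RNA at 5 d, with 13 of 16 above flow-through and a median log2 ratio of 0.66. At 14 d 9 of 16 were (median 0.13), and the median was -2.47 in uninjured cord, -1.05 at 2 d, and -0.86, -1.10 and -1.56 at 28, 42 and 70 d. Of 12 monocyte-derived macrophage markers, 6 were above flow-through in uninjured cord, 8 at 2 d, 10 at 5 d and 9 at 14 d. Their median log2 ratios were -0.06, 0.72, 1.90 and 0.91, and 0.19, 0.39 and 0.12 at 28, 42 and 70 d. Of 6 neutrophil markers, 6 were above it in uninjured cord (2.66), 5 at 2 and 5 d and 6 from 14 d. Of 8 microglia markers, 1 was above it at every time. The part of these cells was not tested. From 14 d Clu and Abca1 were the only members called higher in astrocyte RNA at every time. Apod, Apoc1 and Apoc4 were lower at 14 d (5 of 9 called, all genes 34.4%), Apoc1, Apoc2, Apoc4 and Lpl at 28 d (6 of 9, 37.1%), Apod and the 3 C apolipoproteins at 42 d (6 of 9, 29.2%), and these 4 with Abcg1 at 70 d (7 of 9, 30.8%). Apoe had no 2-fold difference from 14 d on (log2 0.61 ± 0.11 at 14 d, -0.04 ± 0.11 at 28 d and 0.17 ± 0.26 at 70 d), its level in the 2 fractions having come together. Among these differences from 14 d on, that of Apoc4 at 28 d was the widest (log2 -3.74 ± 0.11). Several of these calls were thin. Apoc2 at 42 d was lost without any 1 of astrocyte libraries 1 or 4 or flow-through libraries 1, 3 or 4 (adjusted p = 0.0142 to 0.0196). Apod at 70 d was lost without any 1 of astrocyte libraries 2, 3 or 4 or flow-through libraries 3 or 4 (adjusted p = 0.0118 to 0.0137), and with the mouse as a replicate block it was -0.98, inside the 2-fold limit. Abca1 at 42 d was 0.96 with library totals.

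Whether the change after SCI differed between the fractions was tested directly, as the change in astrocyte RNA minus the change in flow-through. Here, as in the comparison of fractions above, the 2 libraries of a mouse were treated as independent. The mouse as a replicate block was an alternative. At 2 d 8 of 9 differed (all genes 50.7% of 19640), with Lpl at log2 -7.20 ± 0.29, Apoe at -5.50 ± 0.25, Apoc1 at -5.74 ± 0.33 and Abca1 at -5.22 ± 0.28, and with Clu (1.36 ± 0.21) and Apod (1.29 ± 0.36) on the other side. Abcg1 did not pass the test (0.12 ± 0.25, adjusted p = 0.71). At 5 d 4 differed (28.5%), at 14 d 6 (24.5%), at 28 d 7 (28.4%), and at 42 and 70 d 6 each (23.3% and 17.7%). The change of Apoe, Apoc1 and Lpl was the lower one in astrocyte RNA at all 6 times, and that of Abca1 at 2 d and from 14 d on. Abcg1 stood alone on the other side from 5 d on, at log2 4.24 ± 0.28 at 5 d, 3.81 ± 0.28 at 14 d and 1.86 ± 0.27 at 70 d. At these times it was the only member whose change was called larger in astrocyte RNA than in flow-through. The median pan-myeloid log2 ratio of astrocyte RNA to flow-through was -2.47 in uninjured cord. It was higher at these times too, at 0.66, 0.13 and -1.56, and its part was not tested. The calls for Apoc2 at 2 and 28 d were lost without uninjured mouse 1 (log2 -1.25 and -1.29, adjusted p = 0.119 and 0.153), whose astrocyte library had the highest Apoc2 of its group. They and those for Apoc4 at these 2 times were also lost with the newer dispersion fit of edgeR (adjusted p = 0.0148 to 0.185). The call for Apoc4 at 28 d without any 1 of uninjured mice 1, 2 or 4 or 28 d mice 1, 3 or 4 (adjusted p = 0.0109 to 0.0798). The Apod call at 2 d was lost without 2 d mouse 2 or uninjured mouse 3 or 4 (adjusted p = 0.0106 to 0.0167). With the mouse as a replicate block 4 more values passed, Clu at 28 d (log2 -0.62, adjusted p = 0.00435), Apoc2 at 42 and 70 d (-1.52 and -1.81, adjusted p = 0.00285 and 0.000684) and Apoc4 at 70 d (-3.37, adjusted p = 0.00983).

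The mGfap line gave a second view of 14 d. In astrocyte RNA 6 of 9 were higher than in P63 mice (all genes 27.7% of 17848) and 0 lower, with Apoe, Clu and Lpl not called. On library totals in place of TMM, Apoe and Clu were called higher as well (log2 0.53 and 0.45, adjusted p = 0.00373 and 0.00406). Apoe held 20735, 18576, 19148, 19774 and 16611 CPM at P63 and 36425, 19336, 18098, 25388 and 20524 CPM at 14 d (log2 0.43 ± 0.16, adjusted p = 0.028), and Lpl 53.8, 56.6, 64.7, 51.0 and 44.7 CPM and 71.4, 48.3, 29.5, 75.7 and 35.7 CPM (log2 0.04 ± 0.20, adjusted p = 0.89). In both genes the groups overlapped, whereas both had risen at 14 d in the Aldh1l1 line. Apod rose here, from 123, 106, 130.0, 84.5 and 114 CPM to 908, 897, 1774, 1671 and 1166 CPM (12.3-fold, adjusted p = 9.7e-09), with no overlap. Abca1 rose 2.43-fold, from 73.8, 86.7, 69.8, 83.8 and 86.3 to 133, 229, 189, 189 and 176 CPM, Abcg1 3.78-fold, from 27.0, 19.9, 29.4, 18.9 and 27.0 to 74.4, 62.8, 92.2, 125 and 77.6 CPM, and Apoc1 3.72-fold, from 17.99, 15.4, 16.5, 17.2 and 10.5 to 91.1, 29.1, 37.5, 66.0 and 47.0 CPM (adjusted p = 1.2e-06, 1.9e-06 and 1.2e-05). Apoc2 went from 0.186, 0.0882, 0.0568, 0.0620 and 0.158 to 6.18, 1.02, 1.61, 12.3 and 1.54 CPM, a ratio of counts of 40.5 (95% counting interval 29.3 to 57.6). Apoc4 had 0 counts in all 5 P63 astrocyte libraries and held 6.27, 0.708, 1.39, 5.29 and 0.925 CPM at 14 d, at least 323-fold higher than a floor of 3 counts over the P63 group.

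**Figure D3:**
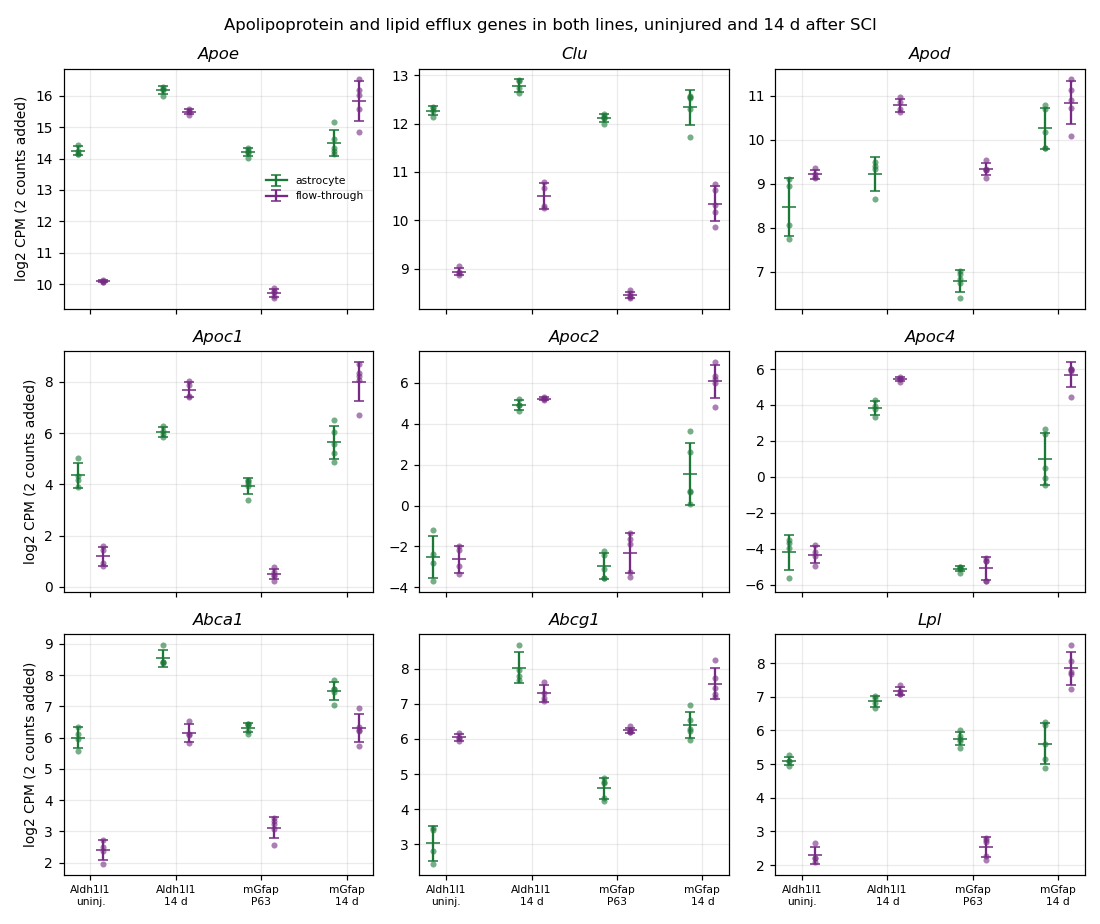
Each panel plots 1 member as log2 CPM in 4 groups, uninjured and 14 d in the Aldh1l1 line and P63 and 14 d in the mGfap line, with points for libraries and bars for mean ± SD of astrocyte RNA (green) and flow-through (purple). In flow-through 0 of 9 members passed edgeR's test between lines, and 14 d astrocyte RNA is lower in mGfap for Apoe, Apoc2, Apoc4, Abca1, Abcg1 and Lpl.

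Libraries 1 and 4 of the 5 at 14 d held the highest Apoe, Apoc1, Apoc2, Apoc4 and Lpl of that group and also its highest pan-myeloid sums, 1246 and 3438 CPM, where the group ran from 437 to 3438 CPM and P63 from 43.6 to 58.4 CPM. Without those 2 libraries Clu passed the test (log2 0.43, adjusted p = 0.000429), as it did without library 4 alone (0.45), and the 6 calls stood. The sum of 10 oligodendrocyte markers in astrocyte RNA was also higher at 14 d (29105 to 43519.7 CPM) than at P63 (10889 to 15277 CPM), and at 14 d 10 of 10 were above flow-through, against 0 of 10 in the other 8 groups of P63 and female Aldh1l1 mice. Its part in the rise of Apod was not tested. In mGfap flow-through 9 of 9 rose by 14 d (all genes 33.6% of 18838), Apoe by 75.0-fold from 855, 931, 886, 783 and 753 to 48653, 29786, 74807, 94001 and 67011 CPM and Lpl by 41.6-fold from 6.96, 6.62, 6.42, 4.81 and 4.38 to 268.96, 149.7, 205, 369.5 and 213 CPM. The pan-myeloid sum in the same flow-through libraries was 484 to 639 CPM at P63 and 13078, 10267, 22670.0, 28411 and 19983 CPM at 14 d, lowest in library 2 and highest in library 4 as Apoe was, and its part was not tested. Between the fractions at P63 7 of 8 tested differed 2-fold (all genes 41.0%), with the same 5 members higher in astrocyte RNA as in uninjured Aldh1l1 mice and Abcg1 and Apod lower. At 14 d 8 of 9 differed (34.4%), Clu and Abca1 higher and 6 lower, among them Apoe (log2 -1.41 ± 0.33), a call lost without any 1 of astrocyte libraries 2, 3 or 5 (adjusted p = 0.0105 to 0.0118).

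Set against each other, the uninjured astrocyte RNA of the 2 lines differed in 2 of 9 members (all genes 12.4%). Abcg1 was higher in mGfap (log2 1.49 ± 0.25, adjusted p = 0.0004) and Apod lower (-1.82 ± 0.27, adjusted p = 0.00013). At 14 d 7 of 9 differed (23.3%), 6 of them lower in mGfap: Apoe (log2 -1.57 ± 0.17), Apoc2 (-2.67 ± 0.59), Apoc4 (-2.26 ± 0.59), Abca1 (-0.98 ± 0.16), Abcg1 (-1.58 ± 0.24) and Lpl (-1.10 ± 0.21). The pan-myeloid sum at 14 d was also lower in mGfap astrocyte RNA, 437 to 3438 CPM against 16480.3 to 24711 CPM in Aldh1l1, and its part in these differences was not tested. The oligodendrocyte, Schwann cell and oligodendrocyte progenitor sums were higher in mGfap. Their medians were 38536, 3375 and 867 CPM against 2811, 356 and 221 CPM in Aldh1l1, and their part was not tested. Apod was higher in mGfap at 14 d (1.14 ± 0.28, adjusted p = 0.0037), a call lost without mGfap libraries 1 and 4 (adjusted p = 0.0136), mGfap library 3 or Aldh1l1 library 3 (adjusted p = 0.0118 to 0.0324). That for Apoc4 was lost without any 1 of the 4 Aldh1l1 libraries or mGfap libraries 2, 3 or 5 (adjusted p = 0.0117 to 0.0267). The difference of the 2 injury changes, the change in mGfap minus that in Aldh1l1, passed in 5 of 9 (12.7%). It was log2 2.95 ± 0.39 for Apod, and -3.07 ± 0.35 for Abcg1, -1.72 ± 0.30 for Lpl, -1.49 ± 0.24 for Apoe and -1.24 ± 0.23 for Abca1. Apoc2 joined them without mGfap libraries 1 and 4 (-3.51, adjusted p = 0.000448). The line and the age of Cre action differ together here and cannot be told apart. In uninjured cord, and so in the injury change, the mix of sexes differs with them. The mice compared at 14 d were all female. In flow-through 0 of 9 differed between lines in uninjured cord (all genes 8.71%), at 14 d (1.48%) or in the injury change (4.58%) by edgeR's test. At an unadjusted p under 0.05 the counts were 3 (Clu, Apoc1 and Abca1), 2 (Apoc2 and Lpl) and 3 (Apoe, Apoc1 and Apoc4). The share of all genes at that looser limit is not given, so these counts have no background beside them. DESeq2 called Clu and Abca1 in uninjured cord and Lpl at 14 d (adjusted p = 0.00736, 0.00638 and 0.00872), and 0 in the injury change. Without mGfap 14 d flow-through library 2, the lowest of its group for Apoe, Apoc1 and Apoc4, edgeR's test called Lpl at 14 d (log2 0.84) and the injury changes of Apoe (0.99, adjusted p = 0.00368) and Apoc1 (1.34, adjusted p = 0.00174). With all libraries the 95% interval for Apoe was log2 0.19 to 1.45, so a like response of the 2 lines is not shown.

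Across postnatal development of the uninjured cord Clu, Apoe and Lpl rose and Abca1 fell, with first calls at P3 or P7. Against P0, 2 of 9 were called at P3 (all genes 4.83% of 18041), 4 at P7 (20.1%), 5 at P14 (47.3%), 5 at P21 (39.2%), and 4 each at P35 (42.7%) and P63 (50.2%). The 6 comparisons share the 4 P0 libraries. Clu, called from P3, held 164, 279.5, 137 and 345 CPM at P0, 802, 618 and 648 CPM at P3 (2.95-fold, adjusted p = 6.8e-05), 2119, 1907 and 1955 CPM at P7 (8.57-fold) and 4094, 4712, 4418, 4434 and 4551 CPM at P63 (18.97-fold). Apoe was abundant from birth, at 8248, 10198, 6185 and 11978 CPM, and was called higher from P7 (18254, 19319 and 20443 CPM, 2.10-fold, adjusted p = 1.8e-05), with 28435, 21887, 22466, 26040.5 and 27309 CPM at P14 and 20735, 18576, 19148, 19774 and 16611 CPM at P63. Lpl, also called from P7, was 2.92, 4.06, 6.27 and 6.64 CPM at P0 and 6.54, 3.35 and 4.97 CPM at P3, where the groups overlapped, then 10.4, 12.7 and 11.3 CPM at P7 (2.29-fold, adjusted p = 0.00017), 100.3, 81.8, 96.1, 100.3 and 104.7 CPM at P14 (19.3-fold) and 126, 121, 122 and 102 CPM at P21 (23.3-fold), above all 5 libraries at P63 (44.7 to 64.7 CPM).

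**Figure D4:**
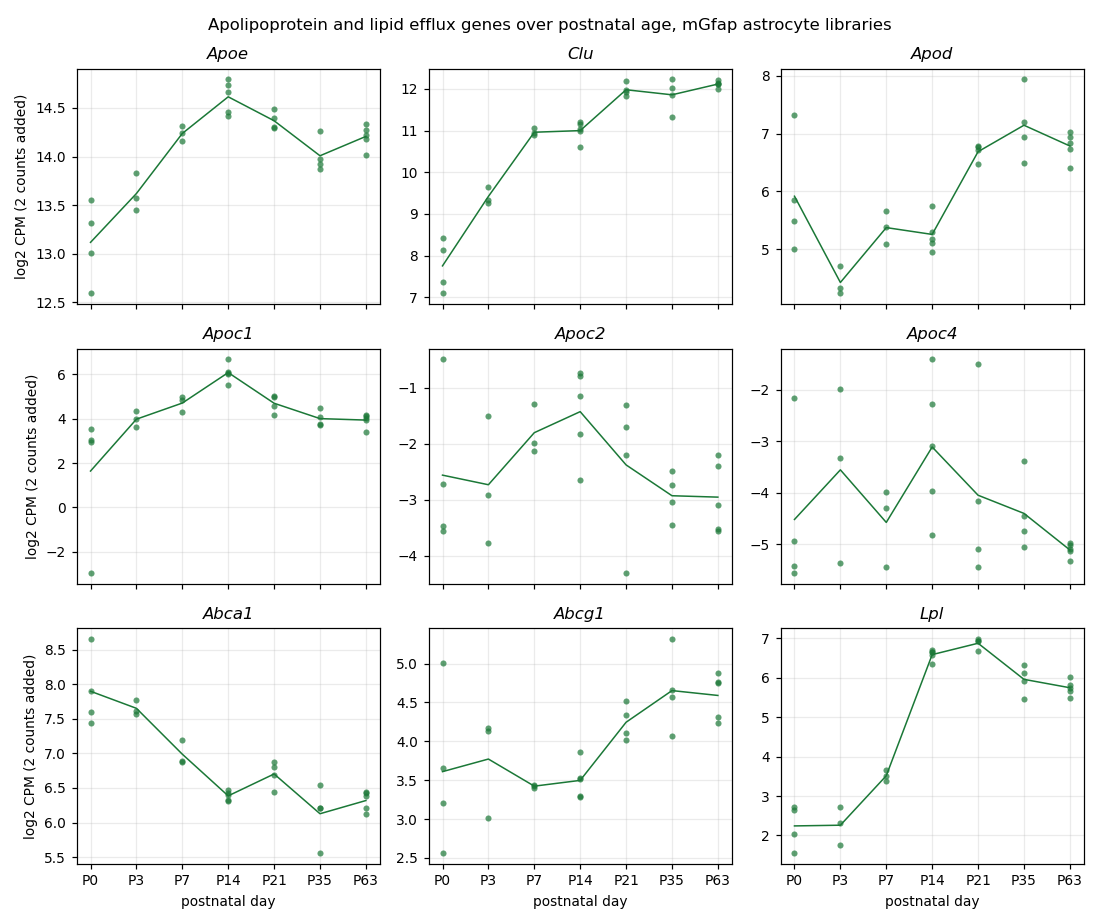
Each panel plots 1 member as log2 CPM in uninjured mGfap astrocyte RNA against postnatal age on evenly spaced ticks, with points for libraries and a line through the group means. Clu climbs from P0 to P21, Lpl between P3 and P14 and Abca1 goes down, while Apoc2 and Apoc4 stay below 0 on this scale, that is under 1 CPM.

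Abca1 went the other way. It held 402, 239.9, 194.1 and 173 CPM at P0 and was called lower from P7, with 146, 118 and 119 CPM at P7 (1.99-fold lower, adjusted p = 0.00057) and 73.8, 86.7, 69.8, 83.8 and 86.3 CPM at P63 (3.19-fold lower, adjusted p = 5.1e-09). Apoc1 peaked at P14, with 63.7, 67.5, 102, 45.9 and 69.0 CPM against 11.6, 7.63, 0.105 and 8.19 CPM at P0 (10.0-fold, adjusted p = 3.4e-05). P0 library 3 stood far below the other 3. The call at P21 was lost with labelled sex as a covariate (adjusted p = 0.0142) and without any 1 of P0 libraries 2 or 4 or P21 libraries 1, 2 or 4 (adjusted p = 0.0105 to 0.0177), and a call at P7 was gained without P0 library 1 or 3 (adjusted p = 0.00932 and 0.000178). Apod was called at P3 only, as lower (log2 -1.78 ± 0.39, adjusted p = 0.0044), a call lost without P0 library 3, which held 161 CPM against 32.0 to 57.9 CPM in the other 3, or without any 1 of the 3 libraries at P3 (adjusted p = 0.0127 to 0.0294). Without P0 library 3 it was called higher at P21, P35 and P63 (log2 1.20, 1.75 and 1.32). At P14 it was called lower without P0 library 2 or 4 (-1.11 and -1.18), and at P35 higher without P35 library 2 (1.21). Abcg1 was not called at any age (P0 5.89 to 32.3 CPM, P63 18.9 to 29.4 CPM, log2 0.68 ± 0.33, adjusted p = 0.076), but was at P21, P35 and P63 without P0 library 1 (log2 1.05, 1.51 and 1.41). Apoe passed at P3 without P0 library 4 (log2 0.62). Apoc2 and Apoc4 stayed under 1 CPM in all 28 libraries of the age series. From each age to the next, 2 of 9 were called from P3 to P7 (Clu and Lpl up; all genes 2.73%), 1 from P7 to P14 (Lpl up; 18.8%), 2 from P14 to P21 (Clu and Apod up; 23.1%), and 0 from P21 to P35 (0.660%) and from P35 to P63 (2.40%), where 3 (Apoe, Abca1 and Lpl) and 0 had an unadjusted p under 0.05. The share of all genes at that unadjusted limit is not given. DESeq2 called Lpl from P21 to P35 (log2 -0.87, lower). The Lpl call from P3 to P7 was lost without any 1 of P3 libraries 2 or 3 or P7 libraries 2 or 3 (adjusted p = 0.0114 to 0.0304). The pan-myeloid sum ran from 34.8 to 188 CPM over the age series, so it stayed near the level of uninjured adult cord. The oligodendrocyte sum ran from 4086 to 9416 CPM at P0 to 25524 to 29104 CPM at P21 and 10889 to 15277 CPM at P63. The sum of 5 Schwann cell markers was 6595 to 20106 CPM at P0, 15251 to 16480 CPM at P7, 12.5 to 9536 CPM at P35 and 1013 to 2005 CPM at P63, and that of 6 stroma markers 2177 to 4904 CPM at P0 and 168 to 263 CPM at P63. That of the 12 astrocyte markers went from 7031 to 19005 CPM at P0 to 58284 to 66879 CPM at P63. The part of these shifts in the changes with age was not tested.

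Male and female Aldh1l1 mice at 5 and 14 d were compared in 1 fit with time as a covariate. By edgeR's test 0 of 9 members differed in astrocyte RNA (all genes 0.0510%) and 0 of 9 in flow-through (0.267%). At an unadjusted p under 0.05 the counts were 1 (Apoc1) and 4 (Apoe, Clu, Apoc1 and Abca1), and the share of all genes at that limit is not given. Nearest to a call was Apoc1 in flow-through, with 96.9, 124, 114 and 113 CPM in males and 258, 169.9, 235 and 175 CPM in females at 14 d, and 20.4, 29.6, 25.8 and 21.3 and 28.8, 33.7, 32.5 and 27.6 CPM at 5 d (log2 -0.63 ± 0.12, adjusted p = 0.012). It was called lower in males by DESeq2 (adjusted p = 8.06e-05), at 14 d alone (log2 -0.91, adjusted p = 0.00149) and without any 1 of female 5 d libraries 1 or 4 or male 5 d libraries 2 or 3. Female 5 d library 4 is the one labelled male, and without it the value was log2 -0.68 (adjusted p = 0.00938). DESeq2 also called Apoe lower in male flow-through (log2 -0.26, adjusted p = 0.00484).

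Around the 9 members, 7 lists of the same lipid pathways were counted in the astrocyte time course. The genes that make cholesterol moved against the members. Of 19 synthesis genes 18 were called lower and 0 higher at 5 d, 17 and 0 at 14, 28 and 42 d, and 18 and 0 at 70 d, with list medians of log2 -2.18 at 5 d and -2.49 at 70 d, where the medians of all genes tested were -0.02 and 0.05. At 2 d, when Apoe was at its lowest, 4 were higher and 5 lower (2 to 7 and 4 to 6 over the alternatives, median -0.14 and -0.26 to 0.09). Idi1, an early isoprenoid enzyme, stood at 2.77 ± 0.723 CPM against 40.0 ± 4.19 at 70 d (injured and uninjured astrocyte RNA, mean ± SD, n = 4 each, log2 -3.85 ± 0.21). At 2 d Tm7sf2 and Dhcr7 had moved most (log2 -1.93 ± 0.12 and -1.18 ± 0.08). In flow-through 17 of the 19 were lower at 2 d (all genes 32.9%), 14 at 5 d and 18 at 70 d. In mGfap astrocyte RNA at 14 d 17 were lower and 0 higher, with a list median of log2 -1.58 against 0.17 for all genes. The share of all genes called lower is not given for flow-through at 5 and 70 d or for the mGfap line.

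**Figure D5:**
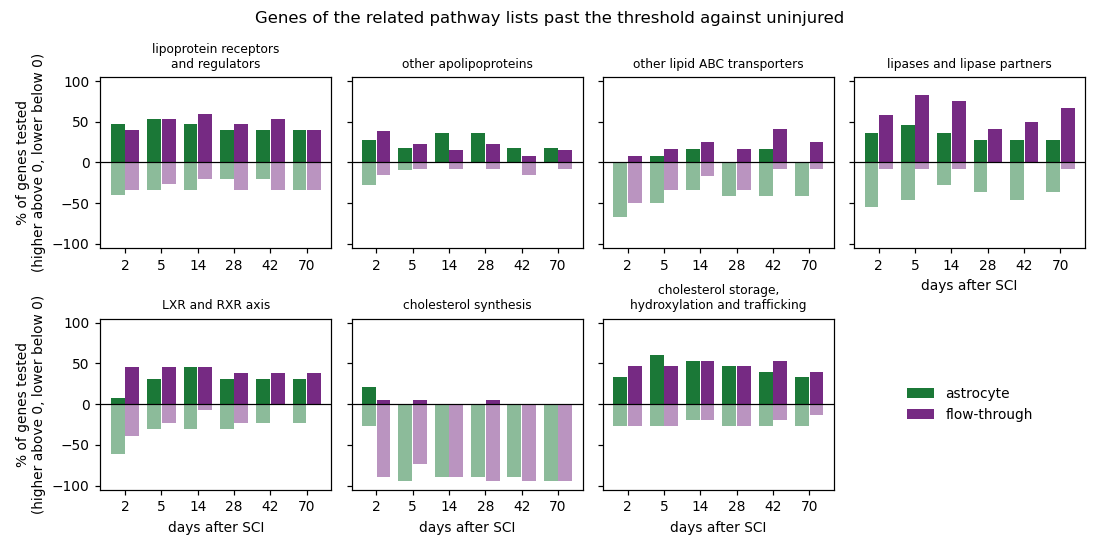
Each panel plots, for 1 list of related lipid genes, the percent of its tested genes called higher (bars above 0) or lower (paler bars below 0) than uninjured at each time after SCI, in astrocyte RNA (green) and flow-through (purple) of the female Aldh1l1 mice. Cholesterol synthesis lies almost wholly below 0 from 5 d in both fractions, and the other lists hold bars on both sides.

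The other 6 lists held calls in both directions. Their counts stand beside 30.2% of all genes called higher and 29.9% lower at 2 d, and 23.9% and 21.5% at 70 d, and several are near those shares. Of 15 lipoprotein receptors and their regulators, 7 of 15 were higher and 6 lower at 2 d, and 6 of 15 were higher and 5 lower at 70 d. Those that moved most take up modified lipoprotein or sense lipid on phagocytes: Msr1 stood at 131 ± 21.4 CPM against 0.302 ± 0.190 at 2 d (log2 8.73 ± 0.52), Cd36 at 44.0 ± 19.3 CPM against 1.08 ± 0.452 (log2 5.35 ± 0.46) and Trem2 at 104.7 ± 60.4 CPM against 1.63 ± 0.166 at 70 d (log2 6.01 ± 0.40). The pan-myeloid sum in astrocyte RNA had a median of 117 CPM in uninjured cord, 3157 CPM at 2 d and 3986 CPM at 70 d, and its part in the rise of these 3 genes was not tested. Of the other apolipoproteins, 3 of 11 were higher and 3 lower at 2 d (2 to 4 and 2 to 5 over the alternatives) and 2 of 11 were higher and 0 lower at 70 d (1 to 4 and 0). Apobr, a receptor for Apob particles, stood at 32.2 ± 11.3 CPM against 2.99 ± 0.673 at 2 d (log2 3.43 ± 0.26) and at log2 1.63 ± 0.26 at 70 d, and Apol9a at 1.21 ± 0.972 CPM against 0.132 ± 0.135 at 2 d. Of the other lipid transporters of the ABC family, 0 of 12 were higher and 8 lower at 2 d and 0 of 12 were higher and 5 lower at 70 d. Abca2, which acts in lysosomal lipid handling, fell to 48.8 ± 13.6 CPM against 191 ± 26.5 at 2 d (log2 -1.97 ± 0.16), Abca4 was lower at both times (log2 -2.75 ± 0.36 and -1.43 ± 0.37), and the peroxisomal transporter Abcd2 was lower at 70 d (-1.20 ± 0.11). Of the lipases and their partners, 4 of 11 were higher and 6 lower at 2 d and 3 of 11 were higher and 4 lower at 70 d. Angptl4, an inhibitor of Lpl, stood at 21.1 ± 2.73 CPM against 6.24 ± 0.583 at 70 d (log2 1.76 ± 0.15), and Lipa, the lysosomal lipase, at 54.2 ± 22.04 CPM against 21.9 ± 1.41 (log2 1.32 ± 0.24). Lipc and Lipg moved most at 2 d from almost nothing, Lipc from 0 counts in the uninjured group to 70, at least 21.4-fold higher than a floor of 3 counts over the group, and Lipg from 2 counts to 119, a ratio of 54.7 (95% counting interval 14.8 to 457).

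Of the LXR and RXR axis, 1 of 13 was higher and 8 lower at 2 d and 4 of 13 were higher and 3 lower at 70 d. Arl4c, an LXR target, rose at 2 d, as Abcg1 did and Abca1 did not, to 48.6 ± 8.88 CPM against 10.6 ± 1.02 at 2 d (log2 2.20 ± 0.18) and to log2 1.97 ± 0.19 at 70 d. Scd1, a fatty acid desaturase that is also an LXR target, fell, to 478 ± 49.4 CPM against 2906 ± 324 at 2 d (log2 -2.60 ± 0.13) and to log2 -1.53 ± 0.14 at 70 d. Of the genes of cholesterol storage, hydroxylation and trafficking, 5 of 15 were higher and 4 lower at 2 d and 5 of 15 were higher and 4 lower at 70 d. Ch25h, which makes an oxysterol, rose to 12.1 ± 4.04 CPM against 0.137 ± 0.128 at 2 d (log2 6.41 ± 0.48) and was at log2 3.79 ± 0.46 at 70 d. Lcat, which esterifies the cholesterol that Apoe particles carry, fell to 22.3 ± 5.48 CPM against 301 ± 10.2 at 2 d (log2 -3.75 ± 0.16), in the same libraries as Apoe and Lpl. Stard4, a sterol carrier, was lower at 70 d (log2 -3.20 ± 0.29). Every gene named from the lists passed edgeR's test at an adjusted p under 0.01. The medians of these 6 lists lay between log2 -1.20 and 1.16 over the 6 times.

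The genes whose group means ran most like each member were sought over the 14 female Aldh1l1 groups, 7 of astrocyte RNA and 7 of flow-through, among 19639 other genes. The points share mice between fractions, and Pearson's r of mean log2 CPM is given as a description only. For Apoe they were Rab19 (r = 0.956), Tha1 (0.956) and Rnf135 (0.938), for Clu Aldh3a2 (r = 0.974), Echdc3 (0.972) and Slc22a4 (0.968) and for Apod Rbpjl (r = 0.945), Lmntd1 (0.933) and Ahsg (0.930). For Apoc1 they were Smad6 (r = 0.940), Arl5c (0.925) and Acad10 (0.913), for Apoc2 Milr1 (r = 0.988), C920009B18Rik (0.981) and Emp3 (0.981) and for Apoc4 Calhm6 (r = 0.977), Slc12a7 (0.973) and Rad51b (0.965). For Abca1 they were Tifa (r = 0.957), Tnfaip2 (0.950) and Dapp1 (0.945), for Abcg1 Ptger4 (r = 0.967), Hpgds (0.957) and Rubcnl (0.948) and for Lpl Orai3 (r = 0.943), Lair1 (0.933) and Mexis (0.932). No member was among the nearest genes of another member, although 4 of them are neighbours on chromosome 7. The likeness of Apoc2 to Milr1, a receptor of myeloid and mast cells, was the closest of all.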

How the data were processed

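RNA sequencing of astrocyte RNA and flow-through was analysed in 117 libraries. Per the methods and labels, the authors joined lanes and used Trimmomatic for trimming, HISAT2 for alignment to mm10 and featureCounts for counting, and deposited whole-number counts per Entrez gene; featureCounts ran with its defaults, under which reads were not split by strand and multi-mapping reads were dropped. The counts are not normalised. Genes were matched to symbols and exon lengths through RefSeq of GRCm38.p6.

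Counts were tested with edgeR 4.0.16 in R 4.3.3 (TMM, filterByExpr, glmQLFit with the legacy and robust options, quasi-likelihood F test, Benjamini-Hochberg over all genes, adjusted p under 0.01; 2-fold as well between fractions). SE is the fold change over the root of F. Log2 CPM has 2 counts added. All female Aldh1l1 groups of 1 fraction shared a fit, as did the 14 groups of both, the 4 groups of the lines and the 7 ages. Groups were taken from the library titles. The scripts were tested on simulated data. The 9 members and the gene lists were chosen with earlier results of these data known. All 9 were named everywhere. From each pathway list the 2 genes with the largest change at 2 d and at 70 d were named, among those called whose libraries did not overlap, and for each member the 3 genes nearest in profile. One gene that this rule named is not reported here. Libraries of 1 number and group in both fractions are 1 mouse, as each mouse gave both. Their deviations correlated at r = -0.0238 to 0.518, best with the own partner in 31 of 39 pairs. At the depth of 40710428 counts or more, counting error matters only for Apoc2 and Apoc4 where they were near 0. Promoter sequences are RefSeq's; Clu, Apoc1, Abcg1 and Lpl had no entry. The alternatives tried were RLE factors (those of DESeq2), library totals, other count filters, DESeq2 1.42.0, a replicate block, labelled sex as a covariate, fits of 2 groups, an adjusted p under 0.05 and leaving out each library.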

Additional observations from a re-analysis of the deposited data

Results flagged for a closer look

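Of 233 member and group combinations with 4 to 10 libraries, 12 held a library whose gap to the nearest other was beyond Dixon's 95% limit, and chance gives about 1 in 20. In astrocyte RNA these were Apoc1 in male 5 d library 2 (23.4 CPM, below the rest), Abca1 in 14 d library 2 (497 CPM, above), Abcg1 in 2 d library 1 (29.97 CPM, above), Apoc2 and Apoc4 in mGfap P0 library 4 (0.699 and 0.208 CPM, above) and Apoc4 in mGfap P21 library 4 (0.327 CPM, above). In flow-through they were Apoe in male 14 d library 1 (29467 CPM, below) and 42 d library 2 (35855 CPM, below), Apod in 5 d library 4, the one labelled male in a female group (1247 CPM, above), Apoc2 in male 5 d library 3 (130.2 CPM, above), Apoc4 in mGfap 14 d library 2 (21.6 CPM, below) and Abca1 in 28 d library 3 (145 CPM, above).

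The change from uninjured to 14 d in astrocyte RNA differed between the mGfap and Aldh1l1 lines by edgeR's interaction test for 5 members, as the mGfap change minus the Aldh1l1 change: Apod at log2 2.95 ± 0.39 (adjusted p = 2.8e-05), Abcg1 at -3.07 ± 0.35 (5.3e-06), Lpl at -1.72 ± 0.30 (0.00042), Apoe at -1.49 ± 0.24 (0.00016) and Abca1 at -1.24 ± 0.23 (0.0006). Age, sex mix and Cre line differ together between these mice.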

How the results depend on the processing

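Over 8493 member values under the alternatives, 8312 kept their call, 83 lost one, 98 gained one and 0 reversed a called direction. Of these, 475 at an adjusted p under 0.05 and 79 without the 2-fold limit reused the main fit. These looser limits could only gain calls, and gave 29 and 7 of the 98. The member counts that moved by over 1.5 times were small. Steps down from one age to the next, 0 as reported, were 2 with DESeq2 (Abca1 from P7 to P14, Lpl from P21 to P35), 3 at an adjusted p under 0.05, 2 with the newer dispersion fit of edgeR (Apoc1 from P14 to P21, Lpl from P21 to P35), 1 on library totals (Abca1) and 0 to 2 leaving out 1 library. Steps down in astrocyte RNA after SCI went from 5 to 8 at an adjusted p under 0.05. Members higher in mGfap than in Aldh1l1, 3 over the 6 comparisons, were 5 with DESeq2, 5 at an adjusted p under 0.05 and 2 to 6 leaving out 1 library. Members lower in males, 0 as reported, were 1 at 14 d alone, 2 with DESeq2, 1 at an adjusted p under 0.05 and 0 to 1 leaving out 1 library.

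Libraries that share only a number across times, ages, lines or sexes correlated at a median r = -0.00886 to 0.0317 in the 7 sets compared, and from 1 of 28 to 10 of 16 libraries were closest to their own number. With that number as a replicate block, Apoc1 from P0 to P21 and Apod at 14 d between lines were lost (log2 1.99 and 1.18, adjusted p = 0.0104 and 0.0145) and Apod from P0 to P35 was gained (log2 1.14, adjusted p = 0.00653). Beyond these and the within-mouse values given above, the block changed no other call. Library totals shifted the median gene by log2 -0.58 to 0.27 over the 53 comparisons, and RLE factors by -0.14 to 0.04. On library totals Apoe at P35 and Apoc1 at P21, both against P0, and 3 differences between fractions were lost, and 10 calls were gained: Abca1 from P7 to P14, Apod from P0 to P14, Clu at 2 d in astrocyte RNA, Apoe and Clu at 14 d in the mGfap line, Clu between lines in uninjured flow-through, and, between fractions, Abcg1 at 28 and 42 d, Lpl at 42 d and Apod in uninjured cord. Among the pathway lists, synthesis genes higher at 2 d were 4 as reported and 2 to 7, other apolipoproteins higher at 70 d 2 and 1 to 4, and storage genes higher at 2 d 5 and 4 to 8. Counts over all genes moved widely between sexes in flow-through, 50 as reported, 934 with DESeq2 and 1184 at 14 d alone, and between lines in uninjured flow-through, 1640 as reported and 79 with labelled sex as a covariate. With that covariate the counts between lines in astrocyte RNA fell too. They went from 2213 to 729 in uninjured cord and from 2258 to 1423 in the injury change. Leaving out 1 library moved the count over all genes by over 1.5 times in 13 of 53 comparisons, all of them steps between neighbouring times or ages, early ages against P0 or flow-through between lines or sexes. From 14 to 28 d the 1348 as reported became 475 without 14 d library 2, from 28 to 42 d the count fell to 93 without 42 d library 3, from 42 to 70 d the 2293 became 1391 without 70 d library 2, and between sexes in flow-through the 50 became 1033 without male 5 d library 3. Leaving out mGfap libraries 1 and 4 together was chosen after seeing the data. Depth limits Apoc2 and Apoc4 in uninjured cord, where a change under the counting interval was not detectable.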
